A study of Aspergillus niger with 6 samples.

Results

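Genes for the endoplasmic reticulum, the compartment in which a fungus folds and glycosylates the proteins it secretes, were compared between an Aspergillus niger strain that lacks rpnR and its control strain. A gene was included when the deposited annotation placed it in 1 of 3 KEGG pathways (protein processing in the endoplasmic reticulum, N-glycan biosynthesis or protein export). Rows with an HSP20, UQ_con, UCH, Cullin or Skp1 domain were left out. The rule found 97 of the 11910 genes, and a further 12 rows of these pathways were left out by domain. By product name, 14 of the 97 serve translocation, 16 folding, 22 glycosylation, 30 quality control and 6 the vesicle coat, while 9 carry other names.

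The libraries were 3 of control strain MA234.1 and 3 of the strain labelled delta-rpnR, from mycelium of both strains grown alike, although the series' design text speaks of duplicates, so the replication behind the authors' q-values is uncertain. The cultures spent 16 h at 30 °C in a medium with 1% glucose and then 4 h in minimal medium with 25 mM xylose. The labels name no other allele and do not say whether libraries came from separate cultures. The table gives 1 authors' value per gene and strain, read as FPKM (fragments per length of transcript and per library output), so no error between libraries can be attached to any level below, and depth is unknown. A gene was called changed where the q-value that the authors deposited for the difference between the strains was under 0.05. The deleted gene is not analysed here and thus gave no check of the labels. Of genes that xylose is known to induce, xylose reductase (1156486) was at 5538 FPKM without the deletion and 8246 with it. The endoxylanase domain proteins lay on both sides, 1101058 (GH11) at 7330.3 and 10435 FPKM, 1143617 (GH11) at 437 and 978 FPKM, 1142818 (GH11) at 5.93 and 3.85 FPKM and 1176802 (GH10) at 683 and 309 FPKM, while 1090635 (GH10) was listed at 0 in both strains. None of these was called, and 1090635 was read as not tested by the authors. The conidiation regulators brlA, abaA and wetA could not be read, since no row carries these symbols. Of the hydrophobin genes hypA to hypH, planned as further markers, hypB and hypC were called lower in the deletion strain. The first was at 10.0 and 0.843 FPKM (q 0.0486) and the second at 18.5 and 5.39 FPKM (q 0.0195). Not called were hypD, hypE, hypF and hypH, which lay below the control, and hypG, which lay above it. The value of hypA also lay above the control, but hypA was read as not tested by the authors.

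Proteins bound for secretion enter the endoplasmic reticulum through a channel to which the signal recognition particle brings them, and signal peptidase then removes the targeting peptide. A branched sugar chain is built on the lipid dolichol, moved onto the entering protein by oligosaccharyltransferase and trimmed by glucosidases and mannosidases, whose products are read by lectin chaperones. Proteins that do not fold are drawn back into the cytosol and degraded, and folded ones leave in vesicles with a COPII coat. Filamentous fungi secrete large amounts of enzymes, and the capacity of this route has long been studied in A. niger for that reason.

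None of the 97 genes was called changed in the authors' deposited table, in which 6.54% of 9234 tested genes had a q under 0.05 (3.29% higher and 3.25% lower in the deletion strain). All 97 were among the tested genes, and the lowest q of any was 0.0519. With an upper bound of the unadjusted p-value computed from the authors' deposited table, 6 genes came under 0.05, 4 with a higher and 2 with a lower value in the deletion strain, against 18.1% of all tested genes (9.24% higher and 8.85% lower). The values differed little between the strains. The log2 difference on the log2(FPKM + 1) scale was smaller than 0.5 in size for 79 of the 97 (81.4%), compared with 66.8% of all tested genes. In the deletion strain 9 genes were at least 1.5 times the control and 6 were lower by that ratio, while 17.8% and 15.1% of all tested genes were. In all, 65 of the 97 values lay above the control (67.0%), with a median log2 difference of 0.15. Over all tested genes 51.3% lay above, with a median of 0.02.

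**Figure D1:**
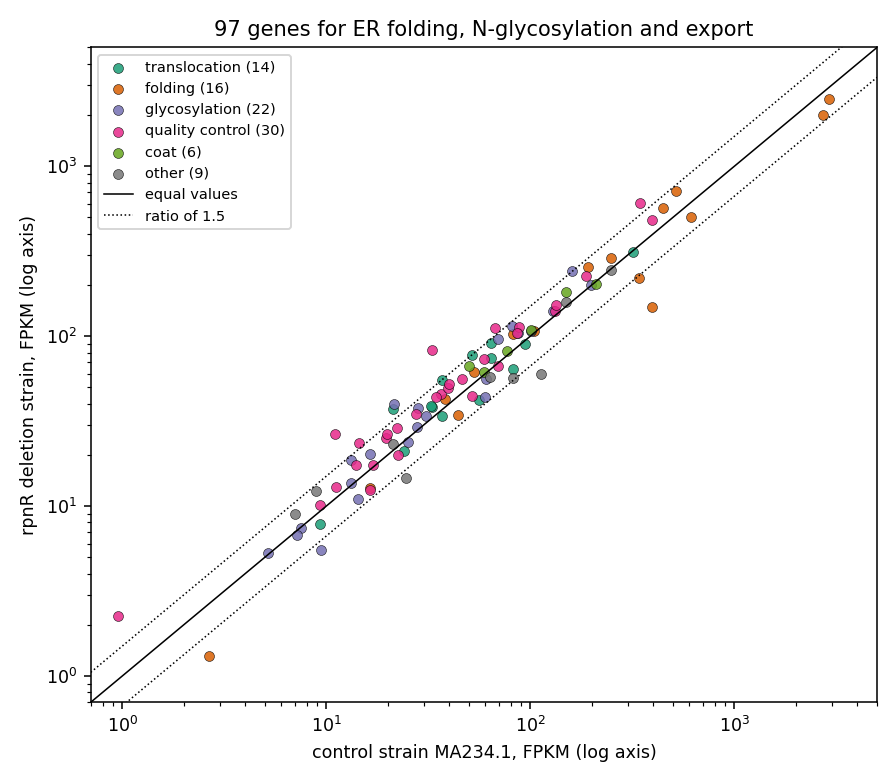
FPKM in MA234.1 (x axis) and without rpnR (y axis), both on log axes, for each of the 97 genes, coloured by role. Most points lie between the dotted lines that mark a ratio of 1.5, with 9 genes on or above the upper line and 6 on or below the lower one.

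How the values were scaled bears on these counts. The share of all FPKM that fell to cytosolic ribosomal protein genes was 11.4% in MA234.1 and 3.63% without rpnR. When the values were rescaled to the same sum over all genes outside that group, the median log2 difference of all tested genes moved by -0.18, to -0.16. On that scale 47 of the 97 values lay above the control (48.5%), beside 37.0% of all tested genes, and their median was -0.04. Of the 97, 47 were above the control and 32 below it under each of 3 scalings (as deposited, centred on the median of all tested genes, and rescaled). The other 18 were above as deposited and below when rescaled.

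Genes for quality control most often lay above the control. Of the 30, 26 values were above and 4 below, with a median log2 difference of 0.30, and after rescaling 22 were above. The enzymes that trim the glycan and the enzyme that reads it lay on 1 side, as all 7 genes for glucosidases and UGGT and all 6 for mannosidases had values above the control. After rescaling all 7 and 5 of 6 still did, with medians of 0.16 and 0.21. These genes were grouped by product name, which does not show in which compartment each acts. None of these genes was called in the authors' deposited table.

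Glucosidase I (GCS1, 1104107), which removes the outermost glucose from the transferred chain, was at 22.2 FPKM in the control and 28.6 without rpnR. The next glucoses are taken off by glucosidase II, and 4 genes with a family 31 glycoside hydrolase domain carry the KEGG name of its catalytic subunit, GANAB. The most abundant, 1114782, was at 345 and 605 FPKM, a log2 difference of 0.81. Protein 1101452 was at 33.0 and 83.1 FPKM, the largest upward difference of the 97 at 1.31 on the log2 scale, and its q in the authors' deposited table was 0.0519. Protein 1180885 was at 46.1 and 56.1 FPKM, and 1128856 was barely detected, at 0.951 and 2.24 FPKM. The log2 difference was 0.28 in 1180885 and between 0.73 and 1.31 in the other three. Family 31 also holds other alpha-glucosidases and alpha-xylosidases, so the shared name does not show that all 4 act in the endoplasmic reticulum. The file predicts a secretion signal for 1114782 and 1180885 and for neither of the others. The gene named PRKCSH (1100624), the glucosidase II beta subunit, was at 85.7 and 104.7 FPKM. UGGT (1184212), which puts a glucose back on proteins that are not yet folded, was at 13.9 and 17.4 FPKM.

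Alpha-1,2-mannosidases of glycoside hydrolase family 47 cut mannose from the chain, and 5 genes carry that product name (MAN1). As with GANAB, the shared name does not show that all 5 act in the endoplasmic reticulum, and this was not tested. Protein 1120443 was at 11.1 FPKM in the control and 26.4 without rpnR, a log2 difference of 1.19, with a q of 0.132 in the authors' deposited table. Protein 1156809 was at 66.9 and 111 FPKM, a difference of 0.73. The other three were closer to the control, with 1177807 at 39.8 and 52.5 FPKM, 1226708 at 19.8 and 26.7 FPKM and 55683, the most abundant, at 133 and 152 FPKM. EDEM1 (1118700), of the same domain family and known in yeast and mammals for marking glycoproteins for degradation, was at 11.1 and 13.0 FPKM. OS9 (1166405), a lectin that reads that mark in those organisms, was at 14.5 and 23.4 FPKM, a log2 difference of 0.65.

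**Figure D2:**
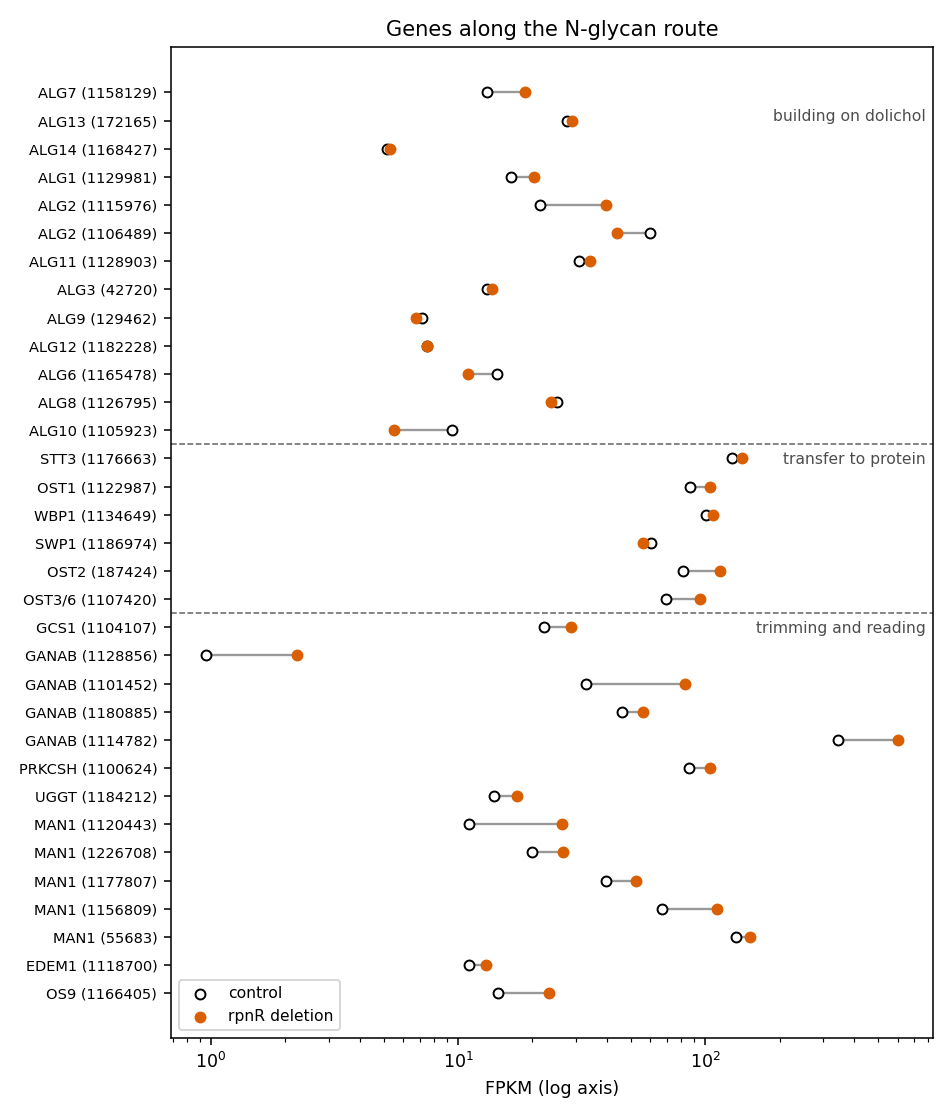
FPKM on a log axis in the control (open circles) and the rpnR deletion strain (filled circles) for the genes of the N-glycan route, ordered from the first sugar on dolichol to the enzymes that trim and read the chain. Filled circles lie to the right of open ones for every gene of the lowest block, while both orders occur in the uppermost and middle blocks.

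The other genes for returning proteins to the cytosol had log2 differences between -0.17 and 0.35, smaller than that of OS9. The ubiquitin ligase HRD1 (1186230) was at 36.4 and 45.3 FPKM and its partner SEL1 (1102272) at 39.5 and 49.4 FPKM. The derlins, membrane proteins of the same complex, were at 17.0 and 17.5 FPKM (1090476) and at 19.5 and 25.2 FPKM (1133805). DOA10 (1118983), a second membrane ligase with 17 predicted transmembrane domains, was at 22.4 and 19.8 FPKM, a value below the control. CDC48, the ATPase that pulls substrates out of the membrane, was at 396 and 479.95 FPKM (1111182), and its cofactors UFD1 (1131988) at 34.4 and 44.0 FPKM and NPL4 (1162341) at 27.5 and 34.6 FPKM. The 3 differ by 0.28, 0.35 and 0.32 on the log2 scale. The shuttle proteins that take ubiquitinated substrates to the proteasome were at 188 and 224 FPKM for DSK2 (1160851) and at 133 and 141 FPKM for RAD23 (204514). PNG1 (1134959), known in yeast and mammals for stripping the glycan from such substrates, was at 69.2 and 66.5 FPKM. Both leguminous-type lectins known as cargo receptors lay above the control, LMAN1 (1167367) at 59.1 and 72.9 FPKM and LMAN2 (1144574) at 88.2 and 113 FPKM.

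Of the 3 sensors of stress, 1 lay above the control. IRE1 (1182097), the kinase and nuclease that starts the unfolded protein response, was at 51.8 FPKM in the control and 44.3 without rpnR, a log2 difference of -0.22. The kinases that phosphorylate translation factor eIF2 were at 16.3 and 12.4 FPKM (EIF2AK4, 1123425) and at 9.34 and 10.2 FPKM (EIF2AK1, 1167349). Their substrate EIF2S1 (55611), which the KEGG pathway includes, was at 112 and 59.6 FPKM, a log2 difference of -0.90 and a q of 0.111 in the authors' deposited table. It was among the 2 genes with a lower value whose bound on the unadjusted p was under 0.05 (0.0112).

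**Figure D3:**
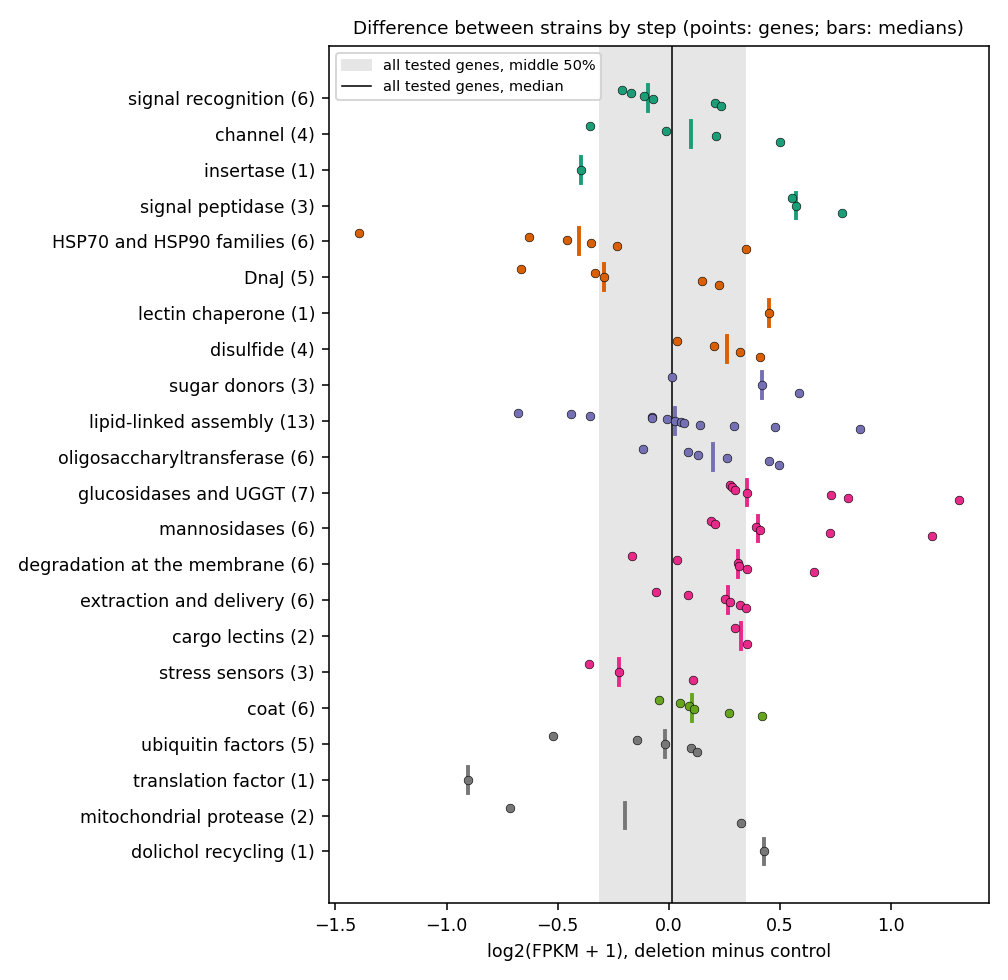
Difference in log2(FPKM + 1), deletion strain minus control, for each of the 97 genes (points) by step of the route, with a bar at the median of each step. The grey band holds the middle 50% of all tested genes (-0.31 to 0.34), and the vertical line is their median of 0.02. Glucosidases, mannosidases, signal peptidase, disulfide isomerases and cargo lectins have all points right of the line, as do the lectin chaperone and dolichol recycling steps with a single gene each. The HSP70 and HSP90 families have 5 of 6 points left of it.

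Genes for folding lay on both sides, 8 above and 8 below the control, with a median log2 difference of -0.10. When they were divided by the file's predictions, a split made after the values were seen, 7 of the 9 with a predicted secretion signal or transmembrane domain lay above (median 0.22). Of the 7 with neither, 1 lay above (median -0.33). After rescaling the counts were 6 of 9 and 0 of 7. Over all tested genes, as deposited, 51.9% lay above among the 2495 with such a prediction and 51.1% among the 6739 without. After rescaling these shares were 38.3% and 36.5%.

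Of the luminal chaperones, calnexin (1101772), the membrane lectin that holds folding glycoproteins, was at 519.6 FPKM in the control and 709.9 without rpnR. BiP (1111800), the HSP70 of the endoplasmic reticulum, was at 447 and 569 FPKM, and its q in the authors' deposited table was 0.922. HYOU1 (1150065), a large HSP70 relative that exchanges nucleotide on BiP in mammals, was at 44.0 and 34.3 FPKM, on the other side from BiP. The 4 protein disulfide isomerases, which form and shuffle disulfide bonds, all lay above the control. PDIA1 (1136225) was at 193 and 256 FPKM, the PDIA6-type 1128436 at 249 and 286 FPKM, the PDIA6-type 1181965 at 82.1 and 103 FPKM, and EPS1 (1121885) at 104 and 107 FPKM. EPS1 lay below the control after rescaling (-0.16), where the median of all tested genes was also -0.16. DNAJC3 (1178942), a co-chaperone of BiP in mammals, was at 52.8 and 61.9 FPKM.

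The KEGG pathway also lists cytosolic chaperones, and 1 of these held the lowest value of all 97 differences. Of the 2 genes named HSPA1_8, the cytosolic HSP70, 1145960 was at 392 FPKM in the control and 148 without rpnR, a log2 difference of -1.40. Its q in the authors' deposited table was 0.0637, and the bound on its unadjusted p was 0.00475. The more abundant gene, 1121080, was at 2729.8 and 1987 FPKM, a difference of -0.46. HSP110 (1148082), which exchanges nucleotide on HSP70, was at 341 and 220.5 FPKM (-0.63), and HSP90A (1169799) at 2903 and 2467 FPKM (-0.23). The DnaJ proteins, which hand clients to HSP70, were at 614 and 500.5 FPKM (1006682) and at 16.4 and 12.8 FPKM (1183758) for DNAJA2 and at 38.2 and 42.4 FPKM for DNAJB12 (1166961). DNAJB12 lay below the control after rescaling (-0.04), though above the median of all tested genes on that scale (-0.16). DNAJA1 (1186807) was low, at 2.66 and 1.31 FPKM. The file predicts a transmembrane domain for DNAJA1 and neither feature for DNAJB12 and the DNAJA2 genes. In which compartment these DnaJ proteins act was not tested. The 4 genes named HSPA1_8, HSP110 and HSP90A weigh on the sums, since the summed FPKM of all 97 genes was 14226 in MA234.1 and 13888 without rpnR, and 7860 and 9065 when these 4 were left out, a choice made after the values were seen.

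**Figure D4:**
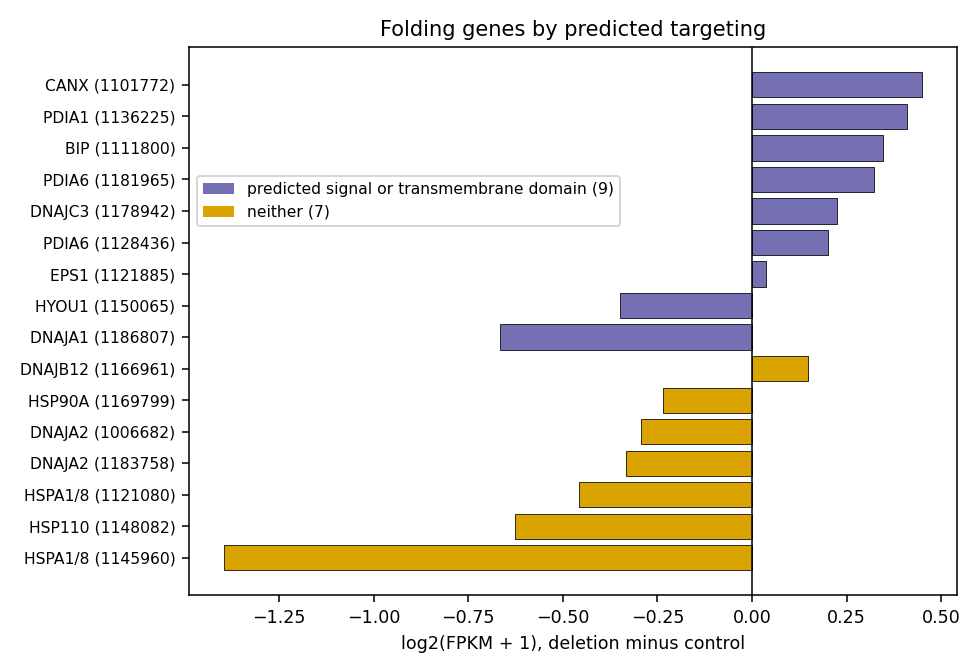
Difference in log2(FPKM + 1), deletion strain minus control, for the 16 folding genes (bars), coloured by whether the file predicts a secretion signal or transmembrane domain. Of the 9 with a prediction 7 have bars right of 0, and of the 7 without 6 have bars left of 0.

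Of the 22 glycosylation genes, 15 lay above the control, with a median log2 difference of 0.08, and 8 did after rescaling. The 13 that build the chain on dolichol stood close to the control, with 7 values above and 6 below and a median log2 difference of 0.03, or -0.14 with 3 above after rescaling. ALG7 (1158129), which starts the chain, was at 13.2 and 18.7 FPKM. The pair that adds the next sugar was nearly level, ALG13 (172165) at 27.7 and 29.0 FPKM and ALG14 (1168427) at 5.18 and 5.30 FPKM. ALG1 (1129981), the first mannosyltransferase, was at 16.4 and 20.3 FPKM. The 2 genes named ALG2, for the mannosyltransferase that follows, lay on opposite sides of the control. Protein 1115976 was at 21.4 and 39.6 FPKM, a log2 difference of 0.86, with a q of 0.189 in the authors' deposited table, and 1106489 was at 59.8 and 43.8 FPKM, a difference of -0.44. Summed over the 13 genes, 251 FPKM in the control stood beside 259 in the deletion strain. ALG11 (1128903), the last mannosyltransferase on the cytosolic face, was at 30.8 and 34.0 FPKM.

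On the luminal face ALG3 (42720), ALG9 (129462) and ALG12 (1182228) add further mannoses, and these were at 13.1 and 13.7 FPKM, 7.18 and 6.75 FPKM, and 7.51 and 7.46 FPKM. The glucosyltransferases that finish the chain all lay below the control. ALG6 (1165478) was at 14.3 and 11.0 FPKM, ALG8 (1126795) at 25.1 and 23.7 FPKM and ALG10 (1105923), which adds the outermost glucose, at 9.41 and 5.51 FPKM, a log2 difference of -0.68 and a q of 0.282 in the authors' deposited table. Among enzymes that make the lipid-bound sugar donors for these steps, DPM1 (1090918), the dolichol-phosphate mannose synthase, was at 159.6 and 240.2 FPKM, a difference of 0.59. Its regulatory partner DPM2 (1142296) was at 198 and 200.3 FPKM, and ALG5 (1186556), which makes the glucose donor, at 28.1 and 37.9 FPKM.

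Oligosaccharyltransferase moves the finished chain onto asparagine, and 5 of its 6 subunit genes lay above the control (median 0.20), or 3 of 6 after rescaling (median 0.0027). The catalytic subunit STT3 (1176663) was at 128 and 141 FPKM. OST1 (1122987) was at 86.7 and 104 FPKM, OST2 (187424) at 81.3 and 115 FPKM, OST3 or OST6 (1107420) at 69.6 and 95.6 FPKM, WBP1 (1134649) at 101 and 107 FPKM and SWP1 (1186974) at 60.5 and 55.8 FPKM. Per length, the levels of the 6 subunit genes stood within 60.5 and 128 FPKM in the control, and in that strain each was above those of the 13 assembly genes.

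Translocation genes were divided, 7 above and 7 below the control under each of the 3 scalings. The 3 genes of signal peptidase all lay above it, with a median log2 difference of 0.57, or 0.38 after rescaling. The catalytic SEC11 (1142025) was at 51.9 and 77.5 FPKM, SPC2 (1145832) at 37.0 and 54.9 FPKM and SPC3 (1141289) at 21.3 and 37.3 FPKM, and the lowest q of the 3 in the authors' deposited table was 0.322. The signal recognition particle and its receptor had log2 differences between -0.21 and 0.23. SRP54 (1115095), which binds the signal peptide, was at 32.7 and 38.0 FPKM, SRP68 (1101223) at 36.8 and 33.9 FPKM and SRP72 (1187183) at 23.9 and 21.1 FPKM. SRP19 (1101931), whose row also lists 2 fungal transcription factor domains, was at 9.26 and 7.86 FPKM. The receptor subunits were at 32.7 and 38.6 FPKM (SRPR, 1119773) and at 94.2 and 89.7 FPKM (SRPRB, 1143042).

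The channel itself was level in its pore subunit, SEC61A (1030262), at 317 and 314 FPKM. Its small subunit SEC61B (1142213) was at 81.8 and 63.7 FPKM. SEC62 (1164790), which serves entry after translation, was at 63.8 and 74.2 FPKM, and SEC63 (1102309) was at 64.1 and 91.0 FPKM. OXA1 (1161313), an insertase of the mitochondrial inner membrane that KEGG lists under protein export, was at 55.9 and 42.3 FPKM.

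The coat genes were nearly level, with 5 of 6 above the control and a median log2 difference of 0.10, and 2 of 6 above after rescaling. SAR1 (1142222), the GTPase that starts the COPII coat, was at 209 and 203 FPKM. The inner layer was at 150.02 and 181 FPKM for SEC23 (1083022), at 101 and 109 FPKM for SEC24 (1043257) and at 49.9 and 66.9 FPKM for the other SEC24 gene (1108540). The outer layer was at 59.0 and 61.2 FPKM for SEC13 (1110176) and at 76.5 and 81.6 FPKM for SEC31 (1121366).

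**Figure D5:**
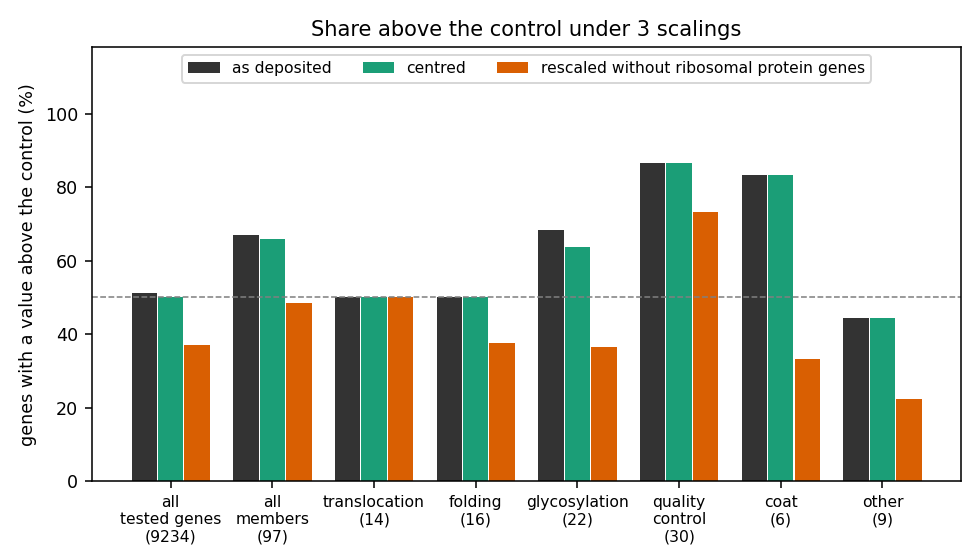
Percentage of genes with a value above the control (y axis), by role, for values as deposited, centred on the median of all tested genes, and rescaled to the same sum outside the cytosolic ribosomal protein genes. Quality control stays highest in each (26, 26 and 22 of 30 genes), while glycosylation and coat are above 50% as deposited and below it when rescaled. All tested genes move as well, from 51.3% as deposited to 37.0% when rescaled, beside 36.4% for glycosylation and 33.3% for coat on that scale.

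The 9 genes with other names had 4 values above and 5 below the control. Besides EIF2S1 they were mostly ubiquitin factors, with RBX1 (1076118) at 247 and 244 FPKM, DOA1 (57150) at 149 and 159.7 FPKM, UFD2 (1110348) at 63.3 and 57.2 FPKM, OTU1 (1168039) at 21.1 and 23.2 FPKM and the chaperone-linked ligase CHIP (1164883) at 81.8 and 56.7 FPKM. The subunits of the mitochondrial inner membrane protease were at 24.6 and 14.6 FPKM (IMP1, 49445) and at 6.98 and 8.99 FPKM (IMP2, 188627). Dolichyldiphosphatase (1163734), which recycles dolichol, was at 8.92 and 12.3 FPKM.

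The 97 genes shared features that the rule did not use. A secretion signal or transmembrane domain was predicted for 59 of them (60.8%), compared with 27.0% of all tested genes. In a split made after the values were seen, 44 of these 59 lay above the control (median log2 difference 0.28), and of the other 38, 21 did (median 0.08), or 35 of 59 and 12 of 38 after rescaling. The roles were not alike in this. Unlike in folding, the shares were similar in quality control, where 17 of 19 with a prediction lay above (median 0.31) and 9 of 11 without (median 0.28). The 11 with 5 or more transmembrane domains had 4 values above the control and a median of -0.01, beside 46.6% above among the 890 tested genes of that kind. In median level the 97 stood at 51.8 FPKM in the control and 55.8 without rpnR, beside 17.7 and 17.5 for all tested genes. Several rows share a product name (21 genes under 8 names), and how the authors' tools shared reads between similar copies is not given in the sources used here.

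No tested gene next to this route in KEGG was called in any of 5 lists, while 6.54% of all tested genes were. The lists did not all lie on the same side. Their values are as deposited and were not rescaled, and on that scale 51.3% of all tested genes lay above the control. Among the 12 rows left out by domain, 9 lay above the control (median 0.31). The ubiquitin-conjugating enzymes UBE2G1 (1169177) and UBE2G2 (1180901) both carry the name UBC7, an enzyme that works with HRD1 in yeast. UBE2G1 was at 33.5 and 70.0 FPKM with a q of 0.0538 in the authors' deposited table. UBE2G2 was at 30.7 and 51.1 FPKM with a q of 0.203 there. Of 3 HSP20 genes 1186352 was at 408 and 671 FPKM, 1173423 at 3.59 and 5.61 FPKM and the most abundant, 1147372, at 1361 and 1120.01 FPKM. Of 13 further tested genes listed for various types of N-glycan, which largely extend mannan in the Golgi, 2 lay above and 11 below the control, with a median log2 difference of -0.21. MNN9 (1109905) was at 16.8 and 8.76 FPKM with a q of 0.102 in the authors' deposited table. Several genes carry the name OCH1, an enzyme that starts the outer mannan chain in yeast. Of these, 1125017 was at 67.1 and 46.6 FPKM, 1156945 at 158 and 141 FPKM and 1134702 at 19.3 and 16.8 FPKM. Of 22 tested genes for GPI anchors, lipids that fasten proteins to the membrane and are also made in the endoplasmic reticulum, 5 lay above and 17 below (median -0.13), with PIGV (1187089) at 26.5 and 17.1 FPKM and PIGZ (1158784) at 23.96 and 16.8 FPKM. Of 9 tested genes for O-glycans 5 lay above (median 0.11), with MNT2 (1163916) at 7.06 and 4.00 FPKM and a RUMI-type glucosyltransferase (1106794) at 2.001 and 3.34 FPKM. Of 14 tested SNARE genes, for vesicle fusion, 10 lay above (median 0.17), with VAMP7 (1188957) at 35.9 and 46.9 FPKM and STX8 (1163971) at 58.2 and 74.98 FPKM. Whether these lists differ from the genes of folding and glycosylation was not tested.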

How the data were processed

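The labels list 3 libraries per strain, whereas the series' design text speaks of duplicates. Tools listed in the submitters' processing notes are Cuffdiff 2.2.1, Cufflinks, TopHat2, Trimmomatic and CASAVA 1.8.3, with no role given for any, and no source used here names the genome build. The authors deposited 1 FPKM value per gene and strain, a unit inferred from Cuffdiff, which reports it. The sum over genes was 828095 for MA234.1 and 872090 without rpnR. FPKM are relative to the library, so a large change in abundant genes moves all others. The deposited q-value (an adjusted p-value) is the authors' own. A q of 1, in 2676 of 11910 genes, was read as no test by the authors.

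From these values, log2(FPKM + 1) differences, ratios and medians were computed with Python 3.11.15 and pandas 2.3.3. The planned count test could not be run without values per library. The bound on the unadjusted p is q times its rank among 9234 genes (ties at the highest rank) over 9234, and it was tested on simulated data. Roles were assigned by product name. In each role the text names the most abundant genes, those with the largest differences and those nearest to none, which came to all 97. From each neighbouring list it names the 2 genes with the largest differences, and further rows named UBC7, HSP20 and OCH1. The genes and lists were chosen with earlier results of these data known. Protein numbers were not paired with the reference table, so no coordinates or sequences are given.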

Additional observations from a re-analysis of the deposited data

How the results depend on the processing

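No paired analysis was possible because the deposited table holds 1 value per strain and none per library, and for the same reason no library was left out and no other count normalization was run. Other thresholds on the authors' q changed the number of called genes among the 97 from 0 to 2 at a q under 0.1, and it was 0 at a q under 0.01. With the bound on the unadjusted p under 0.05 it was 6. Over all 9234 tested genes, 604 calls became 869 at a q under 0.1, 239 at a q under 0.01 and 1670 with that bound. The number of values above the control, 65 of 97, was 39 of 54 when genes of any other KEGG pathway were dropped, because fewer genes were counted (72.2% in place of 67.0%). Under the other settings chosen at the start it lay between 47 (rescaled without ribosomal protein genes, where the median log2 difference turned from 0.15 to -0.04) and 74 of 109 (no rows left out by domain). Alternatives added after seeing the data gave 65 of 93 without HSPA1_8, HSP90A and HSP110 (all below the control), 61 of 88 without the 9 genes of other names, and 44 of 59 (74.6%, median 0.28) with a predicted secretion signal or transmembrane domain. Thresholds on q do not bear on that number. Without values per library, depth and replicate error limit every level, and a q above 0.05 does not show that a gene had the same level in both strains.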
